A study of Homo sapiens with 4 samples.

Results

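The insulin-like growth factor (IGF) axis was followed through 10 genes in human lung fibroblasts with and without siRNA knockdown of HMGB1. The genes are the ligands IGF1 and IGF2, the receptors IGF1R and IGF2R, and the binding proteins IGFBP2, IGFBP3, IGFBP4, IGFBP5, IGFBP6 and IGFBP7. They were taken by symbol from the 63677 genes counted in each library, and each mapped to 1 gene on a primary chromosome. Of the 10, 9 had enough reads to be among the 15398 genes tested, and IGF1 did not.

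IGF1 and IGF2 are secreted growth factors that act through IGF1R, a receptor tyrosine kinase that feeds the PI3K, AKT and mTOR pathway and holds FOXO transcription factors out of the nucleus. IGF2R carries no kinase: it takes IGF2 up from the cell surface for degradation in lysosomes and sorts lysosomal enzymes. The IGF-binding proteins are secreted carriers that hold the ligands away from the receptor or release them when proteases cut the carrier, and fibroblasts are a known source of several of them.

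The study asked what the loss of HMGB1, a nuclear DNA-binding protein that can also act outside the cell, does to gene expression in fibroblasts. IMR90 are normal human fetal lung fibroblasts, grown here as isolates I90-10 and I90-79, which the labels give at passage 5. Cells of each isolate received either a non-targeting control siRNA (NTC) or siRNA against HMGB1, delivered with RNAiMAX, and were collected after 72 h. There were 2 control and 2 HMGB1 knockdown libraries of poly(A)-selected RNA, with replicate 1 from I90-10 and replicate 2 from I90-79 in both groups. No further alleles or agents are given for either group. The model is limited to transfected cultures of 1 fibroblast line, and the transcripts were measured, not the secreted proteins.

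Each library held between 29861687 and 35317010 counted reads. HMGB1 itself was at 181 and 237 CPM (counts scaled to each library's total after TMM correction) in the control libraries and at 16.0 and 18.9 CPM in the knockdown libraries, a 12-fold lower level (log2-fold change -3.59 ± 0.19 SE, adjusted p = 0.00751). All 10 fibroblast markers examined were above 1 CPM in every library, but not all were level. With the isolate as a block, THY1, PDGFRB and FN1 were called lower (log2-fold change without it -0.95, -0.73 and -0.81). LUM was called higher (0.79), and the other fibroblast markers were not called. None of the markers of epithelial, endothelial, leukocyte or hepatocyte cells was above 1 CPM in all 4, and PECAM1 was not analysed here. The endothelial marker VWF was nonetheless at 1.36 and 0.923 CPM in the controls and at 4.16 and 2.59 CPM after knockdown, called higher with the isolate as a block (log2-fold change without it 1.57), while CDH5 was at 0 in every library. Of the 4 smooth muscle markers, ACTA2 and CNN1 exceeded 1 CPM throughout, and both were called lower with that block. Their list summed to 318 and 92.3 CPM in the controls and to 79.9 and 49.3 CPM in the knockdown, below both controls. The part of these markers in the results given here was not tested. In bulk RNA, fewer cells of a kind and less RNA in each cell cannot be told apart.

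Per kilobase of exon, the IGF axis of these fibroblasts was dominated by carriers. IGFBP5 stood at 1650 ± 324 RPKM (CPM per kilobase of exon, mean ± SD, n = 2) in the control libraries, and IGFBP4 at 404 ± 67.5 RPKM. By mean RPKM over the 4 libraries they ranked 6 and 71 among the 15398 genes tested. IGFBP7 (73.1 ± 2.03 RPKM), IGF2R (69.9 ± 1.48 RPKM) and IGFBP6 (64.5 ± 18.7 RPKM) followed at like levels. Of all neighbours in this order, IGF2R and IGFBP6 were the only pair whose control values overlapped, and they overlapped in the knockdown as well.

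Below them came IGFBP2 at 16.3 ± 6.22 RPKM, IGFBP3 at 7.81 ± 1.11 RPKM and IGF1R at 6.09 ± 0.49 RPKM. The ligands were at the bottom, with IGF2 at 1.54 ± 0.68 RPKM and IGF1 listed at 2 to 4 reads in any library. The transcript of IGF1R, the signalling receptor, was 11.5 times less abundant per length than that of IGF2R. In the knockdown libraries the order was the same except for 1 exchange. IGF1R, at 5.41 ± 0.60 RPKM, then lay above IGFBP3, at 4.38 ± 0.053 RPKM, and their values did not overlap in either group.

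**Figure D1:**
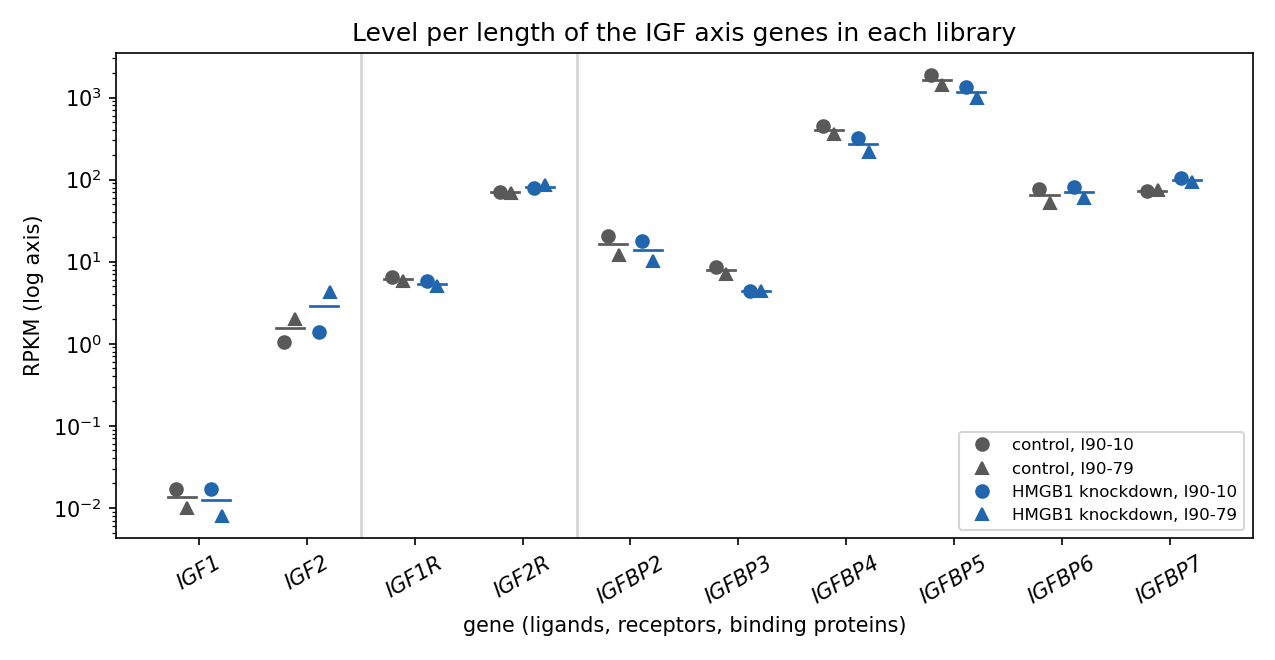
Level of the 10 IGF axis genes in RPKM (log axis), with 1 point per library (circles I90-10, triangles I90-79), controls in grey, HMGB1 knockdown in blue and a line at each group mean. IGFBP5 and IGFBP4 lie above all other members, IGF1 lies at the floor of 2 to 4 reads, and IGFBP3 and IGF1R exchange places between the groups.

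Genes were called where the adjusted p was under 0.01 and the log2-fold change exceeded 0.6 in size. In the edgeR quasi-likelihood fit without the isolate, 0 of the 9 tested members were called higher and 0 lower, where 0.0649% and 0.136% of all genes tested were. At an unadjusted p below 0.05, 1 member was higher and 1 lower, beside 13.6% and 14.7% of all genes, and DESeq2 without a block called 0 members higher and 1 lower, beside 5.33% and 6% of the genes it tested. When the isolate was entered as a replicate block, IGFBP3 and IGFBP4 were called lower and 0 members higher, beside 7.84% and 6.68% of all genes tested. The median log2-fold change of the 9 members was -0.17, and that of all genes tested -0.0054. Within each isolate, 4 members were higher and 5 lower after knockdown, and none changed sign between isolates, while 38.9% of all genes were higher in both isolates and 39.4% lower in both. An exact permutation test of a single value, two-sided, cannot give a p below 0.333 with 2 libraries against 2. In the fit without the isolate, the p-values measure the spread between 1 culture of each isolate. With the block, 4 libraries leave little spread of a gene's own, so the error in edgeR rests largely on a spread shared over genes. The blocked SE was 0.095 for IGF1R and for IGFBP2, 0.0998 for IGF2R and 0.18 for IGF2.

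Among the ligands, IGF1 was practically unread. Its 4 and 3 reads in the control libraries and 4 and 2 reads in the knockdown libraries allow no fold change. IGF2 (chr11:2150342-2170833) was read in every library, at 7.42 and 14.1 CPM in the controls and at 9.73 and 30.2 CPM in the knockdown. The library of I90-79 was the higher one in both groups, the groups overlapped, and the highest value was that of I90-79 after knockdown. The log2-fold change was 0.89 ± 0.58 (adjusted p = 0.371), and with the replicate block 0.78 ± 0.18 (adjusted p = 0.0136), still short of a call. Within I90-10 the knockdown library was 1.31 times the control and within I90-79 2.14 times. RUVs, a method that estimates unwanted variation from replicates, followed by DESeq2, gave 0.13 (adjusted p = 0.831). The log2-fold change was -0.14 without the knockdown library of I90-79 and 1.48 without that of I90-10.

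The IGF2 locus is imprinted in many tissues and shares its region with the non-coding RNA H19. H19 had 0 to 2 reads in each library. Of the exonic bases of IGF2, 27.6% are also annotated to other genes. The read-through gene INS-IGF2, which shares 1460 of them on the same strand, was listed at 0 reads in all 4 libraries, and the antisense gene IGF2-AS at 0 reads in 3 libraries and 5 reads in the knockdown library of I90-79. The strand setting of the count is not given in the sources used here, so reads of a gene and of one that overlaps it on the other strand may not have been separated. How reads in bases shared by genes of the same strand were counted is not known here either. The 0 reads of INS-IGF2 therefore need not mean that it was absent, and the level of IGF2 may be too low if such reads were dropped.

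The receptors differed little between the groups. IGF1R (chr15:99192200-99507759) was at 87.0 and 77.5 CPM in the controls and at 78.8 and 67.3 CPM after knockdown. The groups overlapped, and the log2-fold change of -0.17 ± 0.13 was not called (adjusted p = 0.452). IGF2R (chr6:160390131-160534539) was at 707 and 686 CPM in the controls and at 777 and 860 CPM after knockdown. Both knockdown libraries lay above both controls, by a log2-fold change of 0.23 ± 0.14 that was not called (adjusted p = 0.324). INSR, the insulin receptor, which can pair with IGF1R, was at 10.9 and 10.4 CPM in the controls and at 11.1 and 9.89 CPM after knockdown (log2-fold change -0.02 ± 0.17, adjusted p = 0.959).

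Of the 6 binding proteins, IGFBP3 gave the smallest p. IGFBP3 (chr7:45951949-45961473), the main carrier of IGFs in serum, was at 38.4 and 31.4 CPM in the controls and at 19.7 and 19.4 CPM after knockdown. The knockdown libraries lay close together and below both controls. The log2-fold change was -0.83 ± 0.15, a 1.78-fold lower level, with an adjusted p of 0.0369 that missed the threshold of 0.01. With the replicate block it fell, by 0.83 on the log2 scale (SE 0.12, adjusted p = 0.00143). The knockdown library held 0.515 of the control level in I90-10 and 0.619 in I90-79.

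IGFBP4 (chr17:38599702-38613983), which binds IGFs tightly until the protease PAPPA cuts it, was at 999 and 788 CPM in the controls and at 711 and 477 CPM after knockdown. Both knockdown values were below both controls, but the lower control and the higher knockdown library were close, and I90-79 was the lower isolate in each group. Without the block the log2-fold change was -0.59 ± 0.24 (adjusted p = 0.190). With the replicate block IGFBP4 fell, by 0.61 on the log2 scale (SE 0.10, adjusted p = 0.00325), just past the threshold of 0.6. RUVs with DESeq2 gave -0.37 (adjusted p = 0.0547) and no call. By that method 0 members were called higher and 1, IGFBP3, lower, beside 5.9% and 6.39% of the genes it tested.

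IGFBP5 (chr2:217536828-217560248), a carrier that also binds extracellular matrix, was at 12106 and 9156 CPM in the controls and at 8765 and 6416 CPM after knockdown. Here too both knockdown libraries were below both controls and the I90-79 library was the lower of each pair. The log2-fold change was -0.49 ± 0.26 (adjusted p = 0.283). With the replicate block it was -0.49 ± 0.096 (adjusted p = 0.0064), so the p passed and the size did not reach 0.6. RUVs with DESeq2 gave -0.27 (adjusted p = 0.156) and no call. In CPM, IGFBP5 had the largest difference among the members. IGFBP5 took 1.19% and 0.955% of all counted reads in the controls, where it ranked 2 among genes in both, and 0.848% and 0.645% in the knockdown libraries, where it ranked 5 and 4. Counting error on these shares was small, with 95% exact Clopper-Pearson intervals of 1.187% to 1.194% for the highest and 0.642% to 0.647% for the lowest.

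IGFBP2 (chr2:217497551-217529159), the carrier encoded next to IGFBP5, differed by isolate. It was at 98.9 and 56.9 CPM in the controls and at 84.6 and 48.8 CPM after knockdown. The groups overlapped, and the log2-fold change of -0.22 ± 0.36 was not called (adjusted p = 0.725, with the replicate block 0.111). IGFBP2 and IGFBP5 face each other tail to tail, with 7668 bases and 0 annotated genes between them.

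IGFBP6 (chr12:53491220-53496129), which prefers IGF2 to IGF1, was at 99.4 and 65.7 CPM in the controls and at 103 and 76.8 CPM after knockdown. The groups overlapped, and the log2-fold change was 0.12 ± 0.25 (adjusted p = 0.781). RUVs with DESeq2 gave 0.41 (adjusted p = 0.0399) and no call. IGFBP7 (chr4:57896939-57976551), a related protein with low affinity for IGFs, was at 138 and 144 CPM in the controls and at 202 and 180 CPM after knockdown. Both knockdown libraries were above both controls. The log2-fold change of 0.44 ± 0.12 had an unadjusted p of 0.0131 and an adjusted p of 0.0866, and with the replicate block the adjusted p was 0.0122, so IGFBP7 was not called. POLR2B on the opposite strand shares 270 of its exonic bases and had 6768 to 7766 reads, beside 4067 to 5841 reads for IGFBP7.

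Both knockdown libraries were above both controls for 2 members, IGF2R and IGFBP7, and below both for 3, IGFBP3, IGFBP4 and IGFBP5, beside 29.8% and 30.2% of all genes tested.

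**Figure D2:**
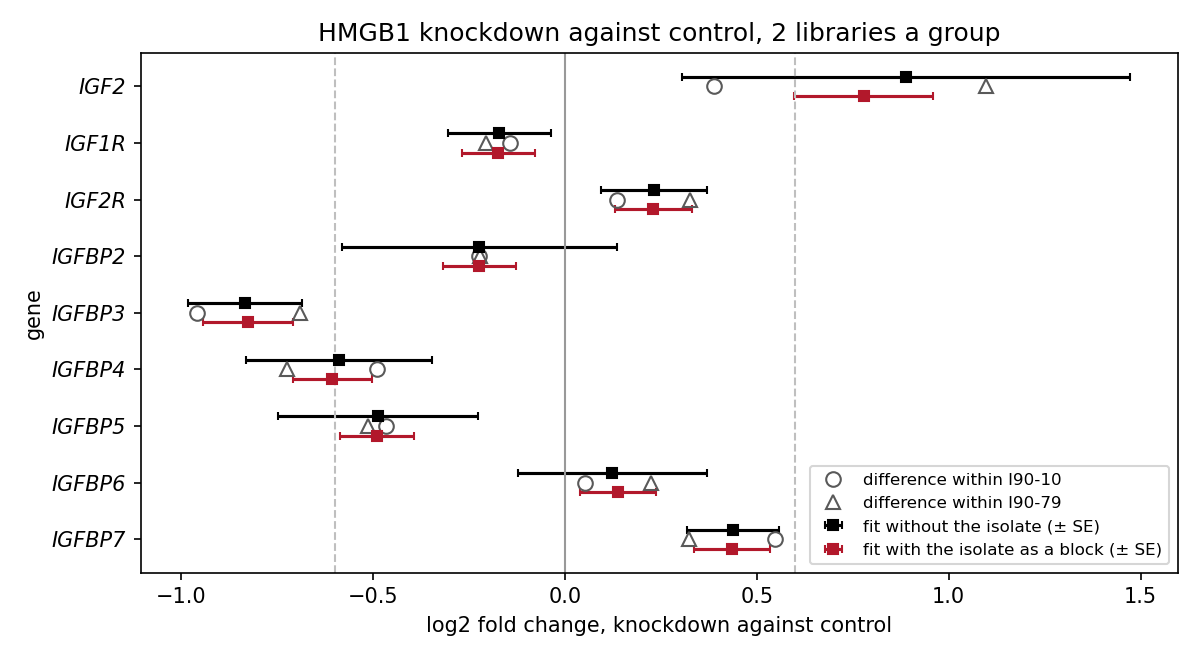
Log2-fold change of the 9 tested members after HMGB1 knockdown, from the fit without the isolate (black squares, ± SE) and from the blocked fit, in which the isolate is a term (red squares, ± SE), with the difference within each isolate as open symbols and the threshold of 0.6 dashed. IGFBP3 lies at -0.83 in both fits, IGFBP4 crosses the threshold only with the block at -0.61, and the error of IGFBP2 narrows from 0.36 to 0.095 with the block.

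Summed over the 6 binding proteins, the level was 2510 and 1923 RPKM in the controls and 1890 and 1380 RPKM after knockdown. The sum was lower after knockdown in each isolate, and the higher knockdown library lay just under the lower control. Most of the sum was IGFBP5, whose share was 74.9% and 73.9% in the controls and 72.0% and 72.2% in the knockdown. IGFBP4 had shares of 18.0% and 18.5% in the controls and of 17% and 15.6% in the knockdown. IGFBP7 and IGFBP6 took more of the smaller sum: IGFBP7 went from 2.86% and 3.88% to 5.54% and 6.76%, and IGFBP6 from 3.10% and 2.67% to 4.26% and 4.35%. For these 4 carriers, and for IGFBP3, the shares did not overlap between the groups, and the smallest p that an exact permutation test allows here is 0.333. In CPM, both knockdown libraries lay above both controls for 29.8% of all genes tested and below both for 30.2%. The shares are parts of 1 sum and so depend on each other, and the CPM values of IGFBP6 itself overlapped between the groups. IGFBP2 and IGFBP3 stayed under 1% of the sum in every library, with overlapping shares for IGFBP2 and 0.343%, 0.365%, 0.234% and 0.315% for IGFBP3 in the order controls, then knockdown.

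**Figure D3:**
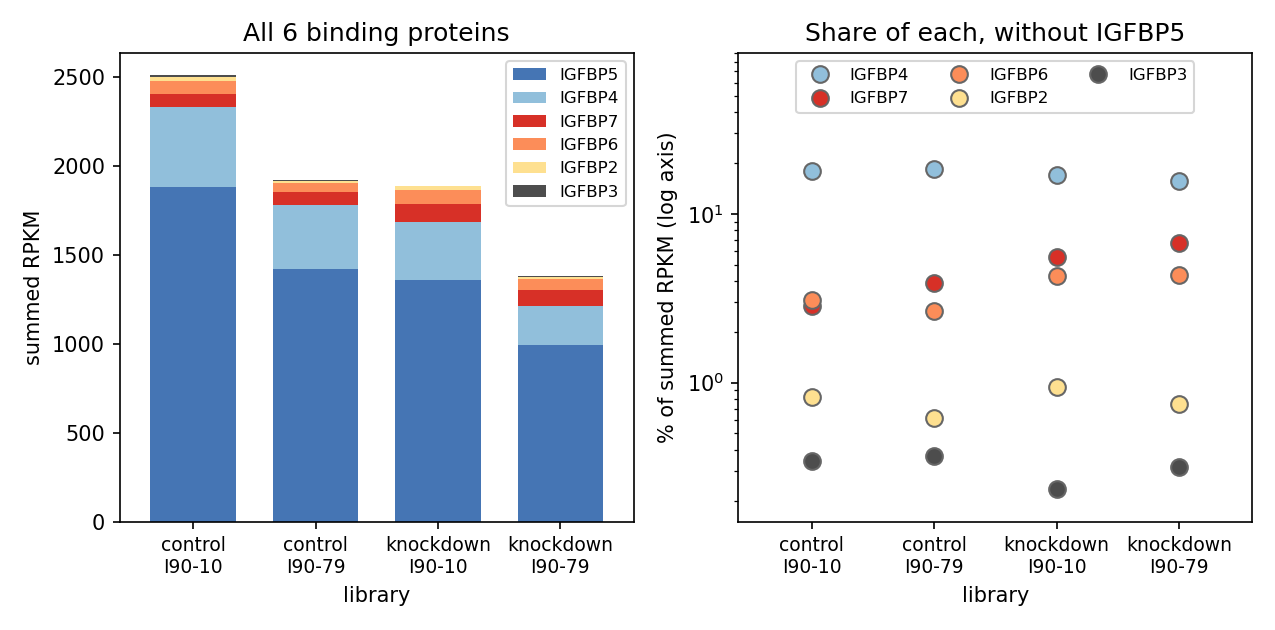
Left, RPKM of the 6 IGF-binding proteins stacked for each library. Right, each carrier's percent of that sum on a log axis, with IGFBP5 (72.0% to 74.9%) left out. The sum is lowest in the knockdown library of I90-79 at 1380 RPKM, and IGFBP7 and IGFBP6 hold larger shares in both knockdown libraries than in either control.

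The isolate separated several members as much as the knockdown did. This was tested as the isolate term of the blocked fit, a test added after the data had been seen. IGF2 was called higher in I90-79, by a log2-fold change of 1.29 ± 0.18 (adjusted p = 0.00839), and IGFBP2 lower, by -0.79 ± 0.10 (adjusted p = 0.00462), so 1 member was called higher and 1 lower, beside 0.442% and 1.23% of all genes tested. IGFBP2 was lower in I90-79 by 0.80 on the log2 scale among the controls and by 0.79 after knockdown. IGFBP4, IGFBP5 and IGFBP6 were also lower in I90-79, with log2-fold changes of -0.46, -0.43 and -0.51 and adjusted p of 0.0386, 0.0391 and 0.0235 that were not called. For IGFBP3, IGFBP7, IGF1R and IGF2R the isolate term lay between -0.20 and 0.05. The summed fibroblast markers also differed by isolate, at 45839 and 39337 CPM in I90-10 and at 23996 and 25086 CPM in I90-79. Most of that sum came from the matrix genes COL1A1, COL1A2, COL3A1 and FN1. Among the controls PDGFRA went the other way, at 576 CPM in I90-10 and 818 CPM in I90-79, and after knockdown it was at 1062 and 1026 CPM. The other markers of the list were lower in I90-79 in both groups. The part of the fibroblast markers in the differences between isolates was not tested.

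The promoters of the 3 carriers whose knockdown values lay under both controls, and of IGF2R, whose values lay above, are given so that their starts can be compared. Promoters were matched in RefSeq for 8 of the 10 members, not for IGF2 and IGFBP7. Shown are the 250 bases before the annotated start (GRCh38.p14), 5′ to 3′ on the strand of the gene, with capitals for TATA-like words (TATNNA, 40 to 20 bases before the start on the gene's strand) and for GC boxes (GGGCGG on either strand, overlapping copies counted).
IGFBP3 (chr7:45921273-45921522, - strand): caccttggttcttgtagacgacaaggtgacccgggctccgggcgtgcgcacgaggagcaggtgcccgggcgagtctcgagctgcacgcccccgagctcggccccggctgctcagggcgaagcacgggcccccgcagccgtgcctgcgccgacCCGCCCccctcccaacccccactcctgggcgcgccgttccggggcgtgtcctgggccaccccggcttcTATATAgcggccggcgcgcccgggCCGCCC
IGFBP4 (chr17:40443200-40443449, + strand): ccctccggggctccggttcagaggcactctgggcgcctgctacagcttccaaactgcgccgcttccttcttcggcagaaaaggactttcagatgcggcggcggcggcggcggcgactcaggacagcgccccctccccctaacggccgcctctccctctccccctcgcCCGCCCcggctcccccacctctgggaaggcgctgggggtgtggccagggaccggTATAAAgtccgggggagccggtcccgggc
IGFBP5 (chr2:216695550-216695799, - strand): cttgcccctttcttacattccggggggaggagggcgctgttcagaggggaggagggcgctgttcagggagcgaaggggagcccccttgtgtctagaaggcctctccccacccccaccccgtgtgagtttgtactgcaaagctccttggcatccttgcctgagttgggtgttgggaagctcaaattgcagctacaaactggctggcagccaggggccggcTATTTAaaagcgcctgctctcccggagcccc
IGF2R (chr6:159968832-159969081, + strand): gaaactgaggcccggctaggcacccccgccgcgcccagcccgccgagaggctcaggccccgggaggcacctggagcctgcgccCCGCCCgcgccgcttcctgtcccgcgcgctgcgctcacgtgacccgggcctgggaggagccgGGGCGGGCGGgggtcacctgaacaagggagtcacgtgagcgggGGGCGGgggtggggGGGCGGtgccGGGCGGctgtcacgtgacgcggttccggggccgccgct
IGFBP3 holds TATATA beginning 30 bases before its start, IGFBP4 TATAAA at 29 bases and IGFBP5 TATTTA at 31 bases. The word TATNNA was widened to these letters after the promoters had been read. None of the other 5 matched members held it in that window, and 6.42% of the 35116 promoters searched did. Because the word was widened to take in the letters of these 3 carriers, their matches were given beforehand. Neither the split among the members nor that percentage therefore tests whether the word goes with lower values. GC boxes were found 2 times in IGFBP3, 1 time in IGFBP4, 0 times in IGFBP5 and 6 times in IGF2R, and at least 1 was found in 42.6% of all promoters. The forkhead word GTAAACA, searched on both strands because FOXO factors bind such sites, occurred once in each of IGF1 and IGFBP6 and in 2.98% of all promoters. These matches describe the letters only, and 4 libraries cannot relate them to the knockdown.

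In these data, genes with the 6-base word GCAGTT in the 3′ UTR had lower median values after knockdown the more copies they held. The members were searched for it for that reason. Their values come from the same 4 libraries, so they are no separate test of the word. Over the 12284 tested genes whose 3′ UTR spans 100 bases or more, the median log2-fold change was 0.07 for those without the word, -0.10 with 1 copy, -0.22 with 2 and -0.32 with 3 or more. The word was present in 4 of the 9 tested members and in 36.3% of those genes. IGF1, which was not tested, also held it. A longer 3′ UTR has more room for copies, length was not matched here, and no other word was compared. IGF1R and IGF2R, which hold the word, have 3′ UTRs of 7088 and 6420 bases. IGFBP6 and IGFBP2, with 0 copies, have 173 and 332 bases, though IGF2, also with 0, has 3870. Sites of 30 bases are shown for the tested members that hold the word (GRCh37, 5′ to 3′ on the strand of the gene, the word in capitals), since they include both a carrier that was lower and a receptor that was higher.
IGFBP3 (chr7:45953210-45953239, - strand): agtcagcaaagaGCAGTTtgaattttcttg
IGFBP5 (chr2:217538908-217538937, - strand): tttgcatcttgaGCAGTTatccaactagga
IGF1R (chr15:99503020-99503049, + strand): ttttgctggtcaGCAGTTtgtcccactgct
IGF2R (chr6:160529441-160529470, + strand): gaagtcctgaaaGCAGTTgagagctgtagg
Each of these 4 transcripts held 1 copy, with log2-fold changes of -0.83, -0.49, -0.17 and 0.23. IGFBP4, which had the next lowest value after IGFBP3, had 0 copies, as had IGFBP2, IGFBP6, IGFBP7 and IGF2. The part of the word in the members' values was not tested.

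Around the axis, 100 other genes were read from lists, of which 97 were matched and 82 tested. They include the CCN family described at the end and are called other pathway genes below. Without the block 0 were called in either direction, and 33 had an unadjusted p below 0.05, 10 higher and 23 lower, beside 13.6% and 14.7% of all genes tested. DESeq2 without a block called 6 higher and 10 lower, beside 5.33% and 6% of the genes it tested. With the replicate block 8 rose and 13 fell, 2 of the latter in the CCN family, beside 6.68% and 7.84% of all genes tested. Their median log2-fold change was -0.06.

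Among 16 tested genes of a list of IGFBP proteases and other IGF regulators, which also holds the mRNA-binding proteins IGF2BP1, IGF2BP2 and IGF2BP3, 4 rose and 1 fell with the replicate block, beside 6.68% and 7.84% of all genes tested. None of those 3 was called. CTSD, the lysosomal protease cathepsin D, was at 228 and 241 CPM in the controls and at 406 and 439 CPM after knockdown (blocked log2-fold change 0.85, adjusted p = 0.000443, without the block 0.0251). Of the exonic bases of CTSD, 41.3% are also annotated to other genes, and how reads there were counted is not known here. HTRA3, a secreted serine protease, was at 15.9 and 17.8 CPM in the controls and at 27.7 CPM in both knockdown libraries (0.72, adjusted p = 0.00266, with RUVs and DESeq2 0.0102 and no call). ADAM9, a membrane metalloprotease, was at 598 and 471 CPM in the controls and fell to 311 and 323 CPM (-0.74, adjusted p = 0.00235). CTSD, HTRA3 and ADAM9 did not overlap between the groups and moved alike in both isolates. Of all genes tested, 29.8% lay above both controls and 30.2% below both, and 38.9% were higher and 39.4% lower in both isolates.

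STC1, which encodes stanniocalcin-1, an inhibitor of PAPPA, had the largest blocked log2-fold change of the list at 2.46 (adjusted p = 0.00395). It was at 99.2 and 775 CPM in the controls and at 1165 and 2021 CPM after knockdown, so the controls differed from each other by a larger ratio than the knockdown libraries did, and without the block the value was 1.87 ± 0.92 (adjusted p = 0.250). It was 1.04 without the control library of I90-10 and 4.01 without that of I90-79, and RUVs with DESeq2 gave 1.45 (adjusted p = 0.27) and no call. STC2, the related inhibitor of PAPPA, and PAPPA itself were added after their values were seen. STC2 was at 749 and 807 CPM in the controls and at 458 and 578 CPM after knockdown, with a blocked log2-fold change of -0.59 (adjusted p = 0.00348) just short of the threshold in size, and it was called lower by RUVs with DESeq2 (-0.70). PAPPA was at 328 and 572 CPM in the controls and at 677 and 718 CPM after knockdown and was not called (blocked 0.69, adjusted p = 0.0135). STC1 and STC2, which both inhibit PAPPA, thus had values of opposite sign.

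IGFBP1, the carrier encoded next to IGFBP3 and a known FOXO target, had 4 and 19 reads in the controls and 20 and 62 reads after knockdown. Its blocked log2-fold change was 2.05 (adjusted p = 0.00962, without the block 0.174). Without the block it was 1.99, and it ranged from 1.04 without the knockdown library of I90-79 to 3.26 without the control library of I90-79. RUVs with DESeq2 gave 1.24 and no adjusted p. Between IGFBP1 and IGFBP3 lie 18681 bases and 0 annotated genes, and IGFBP1 was read more and IGFBP3 less after knockdown in each isolate.

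Of 47 tested genes of signalling downstream of IGF1R, 1 rose and 8 fell with the replicate block, beside 6.68% and 7.84% of all genes tested. FOXO3, a transcription factor that AKT phosphorylates, was at 88.5 and 68.4 CPM in the controls and at 26 and 23.6 CPM after knockdown (blocked log2-fold change -1.65, adjusted p = 6.06e-05). FOXO4 was at 7.93 and 6.87 CPM in the controls and at 1.80 and 2.27 CPM after knockdown (-1.85, adjusted p = 0.000667). EIF4EBP1, a repressor of translation that mTOR switches off, was at 58.1 and 58.3 CPM in the controls and at 24.2 and 20.2 CPM after knockdown (-1.40, adjusted p = 0.000125). In all 3 both knockdown libraries were below both controls, as they were for 30.2% of all genes tested. The median of the whole list was -0.05.

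PTPN1, a phosphatase that acts on the insulin receptor, fell from 153 and 157 CPM to 75.8 and 77.2 CPM with the replicate block (-1.02, adjusted p = 0.000195). GAB1, a docking protein, was at 35.9 and 24.0 CPM in the controls and at 14.1 and 12.1 CPM after knockdown (-1.17, adjusted p = 0.000496). PIK3CB, a catalytic subunit of PI3K, rose from 35.9 and 40.3 CPM to 59.0 and 72.8 CPM (0.79, adjusted p = 0.000901). The genes of this list that were lower include both repressors and activators of the pathway.

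Of 17 tested FOXO target genes, 3 rose and 2 fell with the replicate block, beside 6.68% and 7.84% of all genes tested, and the median was -0.30. BCL2L11, which encodes the pro-apoptotic BIM, was at 17.7 and 12.1 CPM in the controls and at 46.3 and 27.5 CPM after knockdown (1.29, adjusted p = 0.000179). SESN3, a sestrin that restrains mTOR complex 1, was at 13 and 4.37 CPM in the controls and at 2.98 and 0.865 CPM after knockdown (-2.21, adjusted p = 0.000223). Without the block SESN3 was not called (-2.18, adjusted p = 0.136), RUVs with DESeq2 gave -1.35, and the value was -1.19 without the control library of I90-10 and -3.32 without the knockdown library of I90-10. BCL6 and CITED2 rose by 0.73 and 0.60, and GADD45A fell, by a log2-fold change of -1.0. Of the insulin receptor list only INSR and IDE, the insulin-degrading enzyme, had enough reads to be tested, and neither was called.

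**Figure D4:**
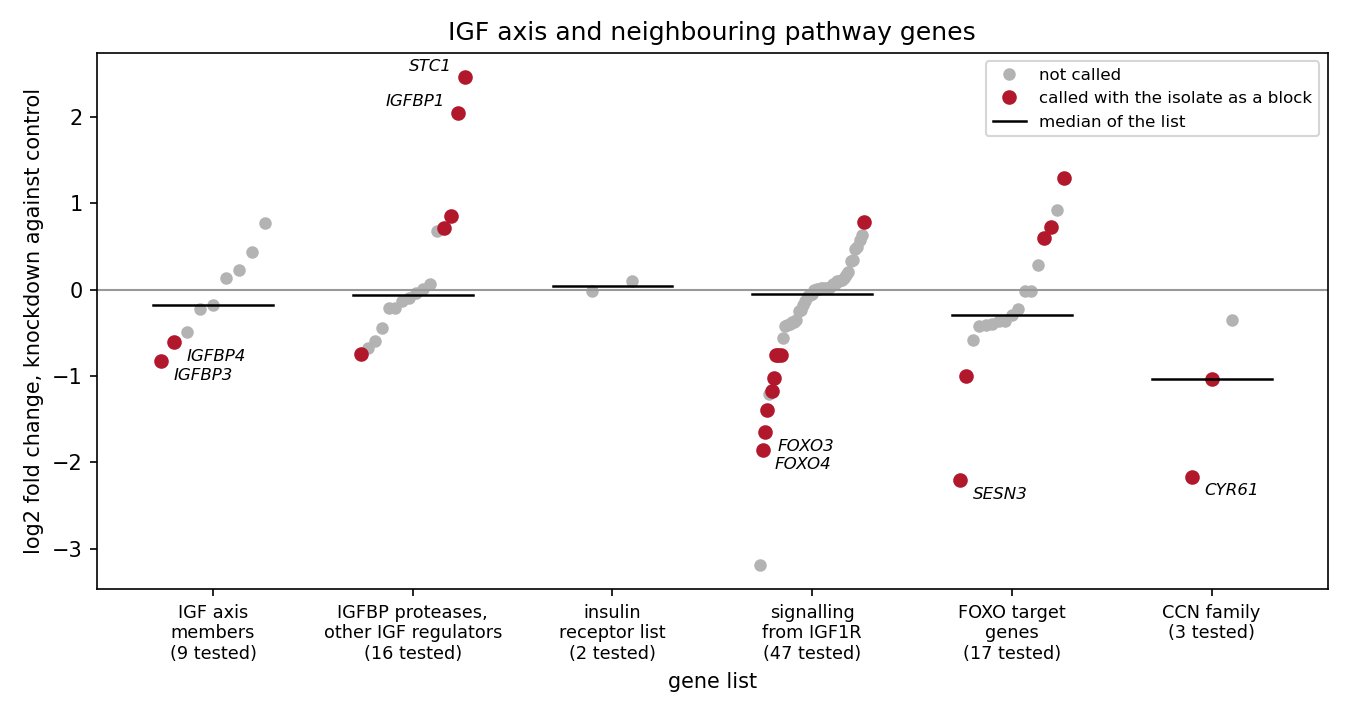
Log2-fold change after HMGB1 knockdown in the blocked fit, for the tested members and the tested genes of each neighbouring list, drawn in order of value within a list. Red points were called (2 of 9 members and 21 of 82 other genes), grey points were not, and lines mark the list medians. IGFBP3 and IGFBP4 are the called members, and STC1 at 2.46 and IGFBP1 at 2.05 are the highest points.

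The genes most like IGFBP3 over the 4 libraries were sought by the distance between centred log2 CPM values, among 9322 genes that averaged 10 CPM or more. The nearest were ZCCHC14, which encodes a zinc-finger protein, at a distance of 0.018, TET2, which encodes an enzyme that oxidises 5-methylcytosine, at 0.052, and EIF2S3, which encodes a subunit of translation initiation factor eIF2, at 0.059. ZCCHC14 was at 51.5 and 41.9 CPM in the controls and at 26.6 and 26.4 CPM after knockdown. Over only 4 libraries a likeness of this kind describes the pattern of values and no more.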

How the data were processed

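Poly(A) RNA from 4 libraries (2 control, 2 HMGB1 knockdown) was sequenced paired-end. The authors mapped reads to hg19 (GRCh37) with STAR, counted unique reads on genes with featureCounts, and deposited raw counts per gene without normalization. Their comparison used RUVs and DESeq2. Tool versions, the strand setting and the handling of read pairs are not given in the sources used here.

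Counts as deposited were tested on all 4 libraries in R 4.3.3 by edgeR 4.0.16, built on limma 3.58.1, with filterByExpr, TMM factors, the quasi-likelihood test and Benjamini-Hochberg adjustment over the 15398 genes kept. Adjusted p-values in the text are from edgeR unless DESeq2 (1.42.0) is named. CPM used TMM-scaled totals, and RPKM divided CPM by exonic kilobases of the count files. Calls needed an adjusted p under 0.01 and a log2-fold change over 0.6 in size, as in the study's methods. SE is that of the log2-fold change, from the fit's F statistic. The scripts were tested on simulated data. Depth was 29861687 to 35317010 counts per library, and intervals on shares cover counting error only.

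Both isolates occur in both groups, which makes same-numbered libraries pairs. Over all genes tested, the isolates' differences within the controls and within the knockdown correlated at 0.464. The block is printed where it changes a call.

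The members and lists were chosen with earlier results of these data known. Named were all members, HMGB1, from each list up to 6 genes called with or without the block by blocked p or else the 2 with the smallest p, and the 3 genes nearest to IGFBP3. H19, INS-IGF2, IGF2-AS and POLR2B were named for their position. Older symbols of the CCN family were matched through RefSeq synonyms. TXNIP, SOD2 and NOV were not analysed here. Alternatives were DESeq2 with and without the block, RUVs with 1 factor and DESeq2, DESeq2 size factors, upper-quartile factors, bias-adjusted deviances, no low-count filter, at least 10 counts in every library, no fold threshold, an adjusted p below 0.05, counts thinned to equal depth, and leaving out each library. RUVs was coded anew, with every tested gene as a control. Promoters were taken from RefSeq (GRCh38.p14) and 3′ UTRs from GENCODE lifted to GRCh37.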

Additional observations from a re-analysis of the deposited data

How the results depend on the processing

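With the replicate block, edgeR called 0 members higher and 2 lower (IGFBP3, IGFBP4), and 8 and 13 other pathway genes. DESeq2 with the replicate block called 1 member higher (IGF2, 0.77, adjusted p = 0.00877, but 0.13 and 0.831 with RUVs) and 2 lower, and 7 and 13 other pathway genes. Without the low-count filter, 1 member was called higher (IGF2, 0.90) and 1 lower, and 9 and 14 other genes. For members called lower, DESeq2 without factors, RUVs with DESeq2 and an adjusted p below 0.05 each gave 1, IGFBP3. For other pathway genes higher and lower, DESeq2 without factors gave 6 and 10, RUVs with DESeq2 5 and 13, and an adjusted p below 0.05 5 and 9. The fits that leave out a library keep 1 library in a group and can call few genes, so only their log2-fold changes are given. Directions reversed for IGFBP2 with RUVs (0.19), IGF2 without a library (lowest to highest -0.14 to 1.48), IGFBP2 (-0.68 to 0.23, above 0 at 0.23 without the control library of I90-10 and 0.12 without the knockdown library of I90-79) and IGFBP6 (-0.14 to 0.45, below 0 at -0.14 without the control library of I90-79 and -0.11 without the knockdown library of I90-10). The cause of these reversals was not tested. Of 126 values for 9 members under 14 alternatives, 111 kept direction and side of the threshold, 9 became calls (IGFBP3 5, IGFBP4 2, IGF2 2) and 6 reversed. The 111 include values from fits that leave 1 library in a group, where staying on the same side of the threshold says little. The replicate block changed no other member's call. IGF1 was too low for a test at this depth, and 2 libraries in each group limit precision for the rest.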

Other observations

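The CCN genes encode matrix proteins that carry a domain related to the one through which IGF-binding proteins hold their ligand. Of 6 listed, 3 had enough reads to be tested, and with the replicate block 2 fell and 0 rose, beside 7.84% and 6.68% of all genes tested. CYR61 (now CCN1) was at 376 and 267 CPM in the controls and at 88.0 and 56.6 CPM after knockdown, a blocked log2-fold change of -2.17 with an adjusted p of 1.78e-05 (edgeR, without the block 0.0195). WISP1 (now CCN4) was at 41.4 and 31.3 CPM in the controls and at 21.3 and 14.6 CPM after knockdown, a blocked log2-fold change of -1.03 (adjusted p = 0.000401, without the block 0.063). CTGF (now CCN2), with 712 and 871 CPM in the controls and 708 and 540 CPM after knockdown, was not called (-0.35, adjusted p = 0.121). In each of the 3 genes both knockdown libraries lay below both controls, as they did for 30.2% of all genes tested. For CTGF the higher knockdown library, at 708 CPM, was barely below the lower control, at 712 CPM.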
